A study of Mus musculus with 2 samples.

Results

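Voltage-gated sodium and calcium channel genes were examined in the hippocampus of 5/6Nx mice and of sham mice. The genes were all those whose name in the scanner files begins with Scn followed by a number and a or b, or with Cacna, Cacnb or Cacng. This gave 40 genes, covered by 63 probes in 72 spots, out of 34742 named genes and transcripts on an array of 55681 probes in 59305 spots. Of the 40, 20 encode pore-forming subunits and 20 auxiliary subunits. The 5/6Nx group is 1 array of hippocampal RNA from ICR mice, an outbred laboratory strain, taken 8 weeks after 5/6 nephrectomy, a surgical loss of most of the kidney tissue that is used as a model of chronic kidney disease. The sham group is 1 array of hippocampal RNA from ICR mice 8 weeks after a sham operation. Whether an array holds RNA of 1 animal or of a pool is not stated. With 1 array per group there was no test of any difference, and the values below describe these 2 RNA samples.

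Voltage-gated sodium channels open when the membrane depolarises and carry the rising phase of the action potential. Their large alpha subunit forms the pore, and small beta subunits alter gating and placement in the membrane. Voltage-gated calcium channels turn the same signal into calcium entry, which drives transmitter release, gene regulation and firing patterns. Their alpha1 subunit forms the pore and defines the L, P/Q, N, R and T types, whereas beta and alpha2delta subunits bring the channel to the membrane. Genes of the gamma family were named after a muscle calcium channel subunit, but most of their products in brain are transmembrane AMPA receptor regulatory proteins (TARPs), which escort glutamate receptors to the synapse.

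Each 60-base probe reads 1 stretch of a transcript, so some of the stretches read for Cacna1g, L type genes and Scn3a are shown first. Among them only the Cacna1g probe gave the value that stands for its gene below. The Cacna1g probe on chromosome 11 of the mm9 build (chr11:94270459-94270518, minus strand) ends in TGA, in capitals, a stop codon in the only reading frame of the probe with no earlier stop. Sequences and mm9 positions are those in the scanner files.
Cacna1g: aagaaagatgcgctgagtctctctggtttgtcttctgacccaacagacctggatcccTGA
The L type genes Cacna1d (chr14:30855259-30855318, minus strand) and Cacna1f (chrX:7212164-7212223, plus strand) have probes that share runs of 13 and 9 bases, set in capitals.
Cacna1d: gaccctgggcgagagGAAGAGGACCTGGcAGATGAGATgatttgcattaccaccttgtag
Cacna1f: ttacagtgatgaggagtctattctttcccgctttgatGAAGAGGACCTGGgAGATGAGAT
Of the Scn3a probes, the most 5′ one was designed on a complementary DNA clone (chr2:65346334-65346393, minus strand) and the next on an Ensembl transcript (chr2:65332960-65333019, minus strand). The second holds the letters GTAAG, in capitals, which 3.94% of all probes hold on the strand printed.
Scn3a, clone probe: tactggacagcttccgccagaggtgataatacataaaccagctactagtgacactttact
Scn3a, Ensembl probe: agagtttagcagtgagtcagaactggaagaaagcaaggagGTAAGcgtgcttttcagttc

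Signals are the scanner software's processed intensities, without scaling between arrays. Differences are log2 values, 5/6Nx minus sham, with both arrays first brought to their own 75th percentile of signal (1263 on the 5/6Nx array, 1452 on the sham array). A gene is represented by its brightest probe well above background and counts as measured when that probe is well above background on both arrays. For members, only probes matched by the naming rule were used. Of the spots on each array, 72.5% were well above background on the 5/6Nx array and 72.7% on the sham array, and 0 were saturated. The software's error estimate for the difference lay between 0.20 and 0.24 for the representing probe of each measured gene. It covers the spots and leaves out variation between animals. For Scn2a, 1 probe was printed in 10 spots, whose SD was 0.04 on the 5/6Nx array and 0.04 on the sham array.

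Of the 40 genes 36 were measured on both arrays. In them 20 differences lay above 0 (55.6%) and 16 below, where 55.4% of all 25918 genes measured lay above 0. The median was 0.03, beside 0.05 over all measured genes. At least 2-fold higher in the 5/6Nx sample were Scn11a, Cacna1f and Cacna1c, 3 of 36, where 4.90% of all measured genes were 2-fold higher. Cacna1c counts here by its probe under the naming rule, whereas a brighter Cacna1c probe outside that rule was at 0.08. At least 2-fold lower was Cacna1s, 1 of 36, where 3.29% of all measured genes were 2-fold lower. Just short of the 2-fold size were Cacna1d at 0.99 and Cacna1b at -0.99, and just past it was Cacna1c at 1.02. At 1.5-fold 7 members were higher and 5 lower, against 13.7% and 8.92% of all measured genes. Scn9a, Scn10a and Cacng1, which encode sodium channels of peripheral sensory neurons and the gamma subunit of skeletal muscle, did not rise well above background in either sample. Scn7a, which encodes a sodium-sensing channel, was above background on the 5/6Nx array only.

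**Figure D1:**
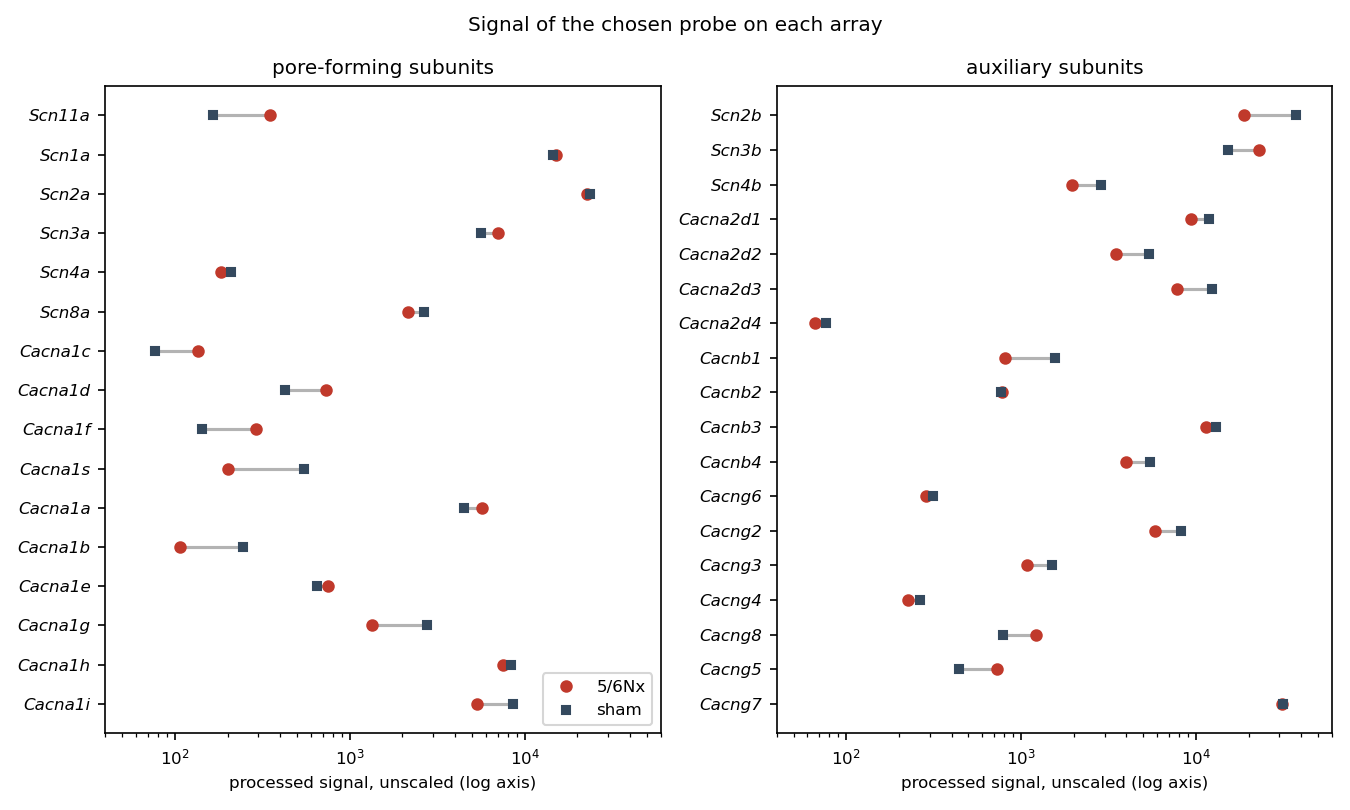
Processed signal of the chosen probe of the 34 measured genes drawn, on the 5/6Nx array (red circles) and the sham array (dark squares), on a log axis, with pore-forming subunits left and auxiliary subunits right. Pairs are to be compared within a row only, since probes differ in brightness; the widest gaps are those of Cacna1s (202 on the 5/6Nx array, 550.1 on the sham array) and Cacna1b (106.9 on the 5/6Nx array, 244 on the sham array).

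The pore-forming subunits spread more widely than the auxiliary subunits. Among 17 measured pore-forming genes, 12 differences lay above 0 (70.6%) and 4 reached 2-fold (23.5%), with a median of 0.23 and quartiles of -0.11 and 0.55. Cacna1c is among these 4 by its probe under the naming rule, whereas its brighter probe outside that rule was at 0.08. Among 19 measured auxiliary genes, 8 lay above 0 (42.1%) and 0 reached 2-fold, with a median of -0.02 and quartiles of -0.32 and 0.14. Of the genes above the median signal, 9 pore-forming and 14 auxiliary, 0 reached 2-fold, and with normexp or with no background subtraction 1 member did. Of all measured genes 55.4% lay above 0 and 8.18% were at least 2-fold apart, and their quartiles were -0.23 and 0.35. The medians had the same order for sodium channels, with medians of 0.23 over 7 pore-forming and -0.11 over 4 auxiliary genes, and for calcium channels, with 0.23 over 10 and -0.02 over 15. Counted by probe, 25 of 32 pore-forming and 12 of 24 auxiliary probes lay above 0, beside 55.4% of all measured genes counted by gene. These counts describe few genes on 1 pair of arrays, and the pore-forming median lies inside the quartiles of all genes. Scaling to the spike-in controls lowered every difference by 1 constant and set the median of all genes at -0.23. The pore-forming median then was -0.055 and the auxiliary median -0.30, so the distance between them is independent of that scaling and the sign of the pore-forming median is not.

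**Figure D2:**
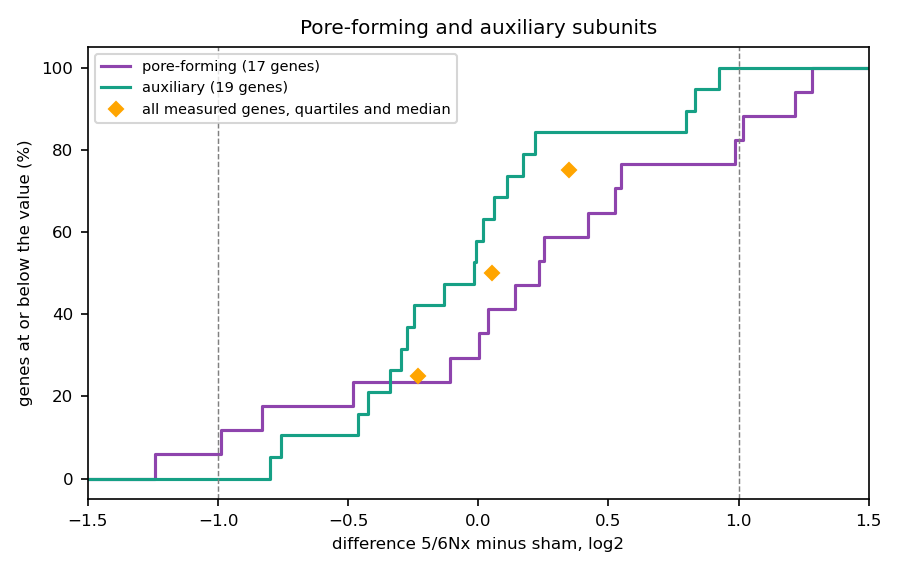
Cumulative share of measured genes (vertical axis, percent) at or below each difference (horizontal axis, log2 5/6Nx minus sham) for 17 pore-forming and 19 auxiliary subunits, with the quartiles and median of all measured genes as diamonds and the 2-fold size as dashed lines. The pore-forming curve reaches past both dashed lines, and the auxiliary curve stays between them.

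Among the sodium channel alpha subunits of central neurons, Scn1a and Scn2a had small differences. Scn1a, the main sodium channel of fast-spiking interneurons, had a signal of 15141 on the 5/6Nx array and 14603 on the sham array, a difference of 0.25, and its other probe stood at 0.16. Scn2a, listed in the files as Scn2a1 and placed on axons of excitatory neurons, had 22754 on the 5/6Nx array and 23699 on the sham array, a difference of 0.14, with its other probes at 0.08 and 0.16. Under spike-in scaling both turned below 0 (-0.03 for Scn1a, -0.14 for Scn2a), and Scn2a did so under scaling to the median too (-0.02). The probes of Scn1a lay within 0.09 and those of Scn2a within 0.08 of each other, closer than the software's error estimate.

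For Scn3a and Scn8a the difference depended on the probe. Scn3a, the sodium channel most prominent before birth, had 5 measured probes. From the 5′ to the 3′ end their differences were 1.17, 0.75, 0.47, 0.53 and 0.03. The first of these, the clone probe printed above, had a signal of 2776 on the 5/6Nx array and 1414 on the sham array. The Ensembl probe had 426 on the 5/6Nx array and 291 on the sham array, and the most 3′ probe had 29.1 on the 5/6Nx array and 32.8 on the sham array, with an error estimate of 0.37. All 5 lay above 0, and 1 was past 2-fold. Scn8a, the channel of the axon initial segment and nodes of Ranvier, had probes at 0.52, 0.40 and -0.11 in the same order. The first had 2364 on the 5/6Nx array and 1901 on the sham array, and the second 482 on the 5/6Nx array and 420 on the sham array. The last, which represents the gene, had 2154 on the 5/6Nx array and 2668 on the sham array. The direction of Scn8a thus depended on the probe read. With normexp background correction the gene was at 0.50, near the 0.52 of its first probe and far from the -0.11 of its last. Whether another probe then represented the gene was not looked up.

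Other sodium channels are best known from muscle and peripheral nerve. Scn11a, a channel of pain-sensing neurons, had the highest difference of all members, with 349 on the 5/6Nx array and 165 on the sham array, a difference of 1.28 (2.43-fold). Of all measured genes 2.74% had a difference at least as high. It rests on 1 probe, and it stayed at 2-fold or more under 10 of 11 alternatives, the exception being spike-in scaling at 0.996. Among those 10, the mean and the median over probes, no filter on dim probes and outlier spots kept could hardly move it. Scn4a, the channel of skeletal muscle, had 184 on the 5/6Nx array and 210.4 on the sham array, a difference of 0.0043. Scn7a had 30.6 on the 5/6Nx array and 13.3 on the sham array, where it was not well above background. A bound put its level at 2.03-fold higher or more in the 5/6Nx sample. Its signals were low, and the software's error estimate for the difference was 0.55, which the bound leaves out. The bound is the bright value set against the higher of the dim probe's own value and the lowest value well above background on the dim array.

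The sodium channel beta subunits differed in direction. Scn2b and Scn4b, whose products are linked to the alpha subunit by a disulfide bond, were both below 0. Scn2b had 18754 on the 5/6Nx array and 37573 on the sham array, a difference of -0.80, and Scn4b had 1960.0 on the 5/6Nx array and 2849 on the sham array, a difference of -0.34. Both kept this direction under all 12 alternatives. Their probes lie 24.1 kb apart on chromosome 9. Scn3b, whose product binds without that bond, had 23021 on the 5/6Nx array and 15214 on the sham array, a difference of 0.80. It turned below 0 in 0 of 12 alternatives. Each of these 3 beta subunit genes was read by 1 probe, so none of them has a check by a second sequence.

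**Figure D3:**
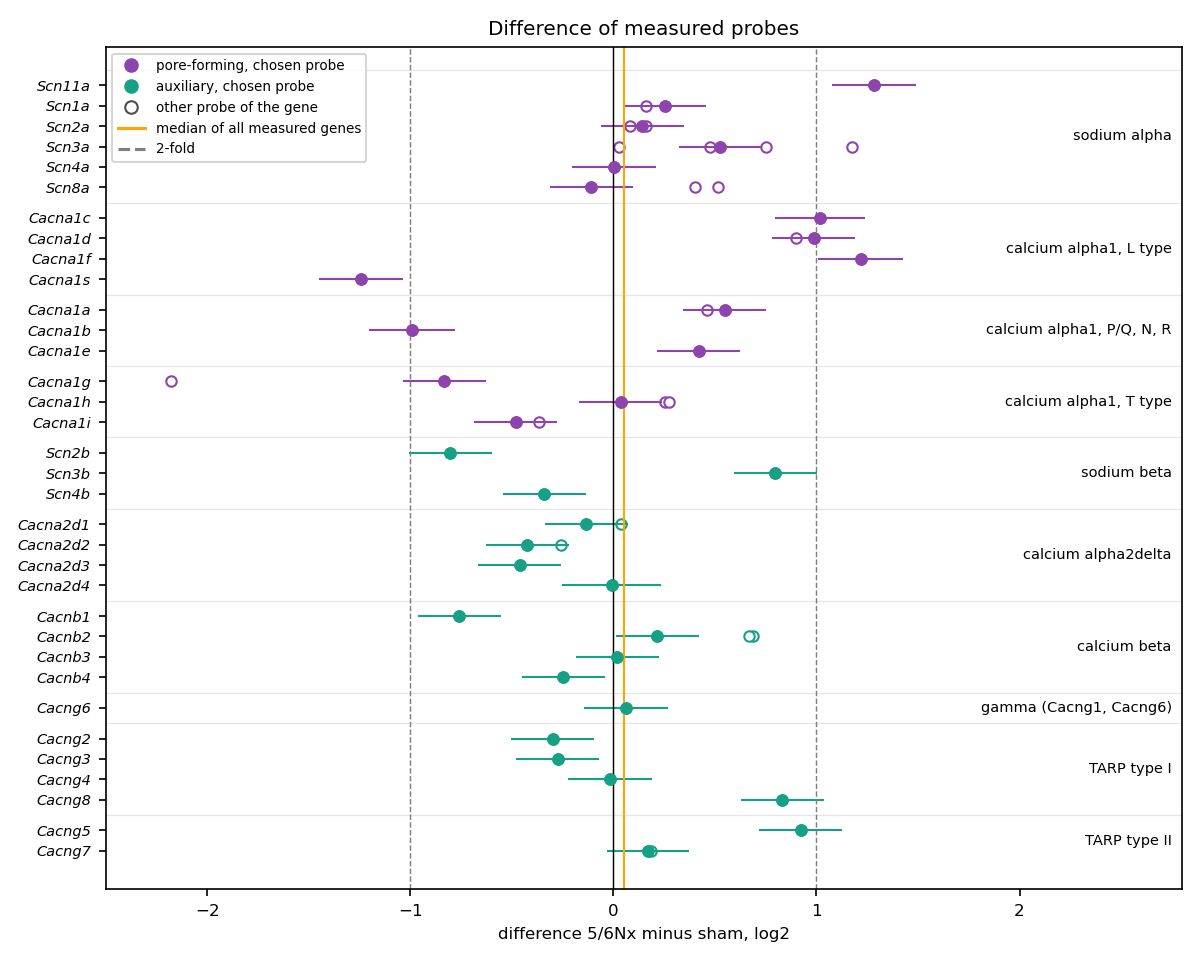
Difference of every measured probe of the genes drawn (horizontal axis, log2 5/6Nx minus sham) by gene and subunit class, with filled points for the chosen probe, open points for other probes of the gene, bars for the scanner software's error estimate, an orange line for the median of all measured genes and dashed lines at 2-fold. L type genes, by their probes under the naming rule, lie near or past the lines on both sides. Cacna1g has an open point at -2.18, and the alpha2delta subunits lie between -0.46 and 0.04.

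The L type calcium channel pores lay near or past 2-fold, in both directions. Cacna1c, Cacna1d and Cacna1f were higher by 1.02, 0.99 and 1.22, and Cacna1s was lower at -1.24. Cacna1d, an L type pore that opens at low voltage and supports pacemaking, had 733 on the 5/6Nx array and 425 on the sham array. Its second probe, printed above, had 429 on the 5/6Nx array and 265 on the sham array, a difference of 0.90. The Cacna1d probes thus had nearly equal differences, and the gene lay between 0.70 and 0.99 under all 11 alternatives run on it.

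The other L type values have weaker probe support. Cacna1c, the main L type pore of brain and heart, had 136 on the 5/6Nx array and 77.4 on the sham array. A further probe, which the files name D930026N18Rik and the reference table lists under Cacna1c, falls outside the naming rule. It had 10513 on the 5/6Nx array and 11438 on the sham array, a difference of 0.08. The 2-fold size of Cacna1c was thus not seen with that further probe, and it was kept under 4 of 11 alternatives. Those 4 were the mean and the median over probes, no filter on dim probes and outlier spots kept. They could hardly move a gene of 1 probe, so they are no check of the size. Under the other alternatives Cacna1c lay between 0.68 and 0.86. Cacna1f, the L type pore of the retina, had 290 on the 5/6Nx array and 143 on the sham array, from a probe on an Ensembl transcript. The Cacna1f probe printed above, 15971 bases farther 3′ and on the RefSeq transcript, was near background on both arrays (7.22 on the 5/6Nx array, 17.0 on the sham array).

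Cacna1s, the L type pore of skeletal muscle, had 202 on the 5/6Nx array and 550.1 on the sham array, a 2.37-fold lower level. Of all measured genes 1.95% had a difference as low. Its dimmer probe, 402 bases nearer the 5′ end, had 17.7 on the 5/6Nx array, where it was not well above background, and 38.7 on the sham array, a difference of -0.93. Cacna1s stayed 2-fold lower under 9 of 11 alternatives. The mean and the median over measured probes, no filter on dim probes and outlier spots kept are among them and could hardly move it. Of 9 skeletal muscle markers 7 were measured, 3 above 0 and 4 below, with a median of -0.12, where 55.4% of all measured genes lay above 0. Their summed level was 1.35 times the 75th percentile in the 5/6Nx sample and 1.46 times in the sham sample. The muscle creatine kinase gene Ckm and Mylpf did not rise well above background in either sample, and Myh1 (-0.93) and Myh2 (-0.91) had the largest differences. The part of muscle RNA in the Cacna1s value was not tested.

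The P/Q, N and R type pores, which trigger transmitter release or dendritic calcium entry, differed in direction. Cacna1a, the P/Q type pore, had 5698 on the 5/6Nx array and 4478 on the sham array, a difference of 0.55, with its second probe at 0.46. Cacna1e, the R type pore, had 756 on the 5/6Nx array and 649 on the sham array, a difference of 0.42. Cacna1b, the N type pore, had 106.9 on the 5/6Nx array and 244 on the sham array, a difference of -0.99. Cacna1b was at least 2-fold lower under 5 of 11 alternatives, and at -0.59 without background subtraction. The presynaptic P/Q and N type genes thus lay on opposite sides of 0, and this order held under every alternative run on both genes. Cacna1b, however, rests on 1 dim probe. The mean and the median over probes, no filter on dim probes and outlier spots kept could hardly move its value.

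Of the T type pores, low-voltage channels that support burst firing, Cacna1g and Cacna1i lay below 0 with every measured probe and Cacna1h above 0 with every measured probe. Cacna1g was represented by the probe printed above, with 1345 on the 5/6Nx array and 2752 on the sham array, a difference of -0.83. Its other probe, 596 bases farther 3′, had 681 on the 5/6Nx array and 3545 on the sham array, a difference of -2.18, the lowest of all 56 measured member probes. Both probes were lower in the 5/6Nx sample, but by amounts 1.35 apart, more than the software's error estimate, and the mean over them was -1.51. Cacna1i was at -0.48, with 5347 on the 5/6Nx array and 8576 on the sham array, and its second probe at -0.37. Cacna1h was at 0.04, with 7475 on the 5/6Nx array and 8373 on the sham array, and its other probes at 0.26 and 0.27. Its value by the brightest probe turned below 0 with scaling to the median (-0.12) and with spike-in scaling (-0.25).

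**Figure D4:**
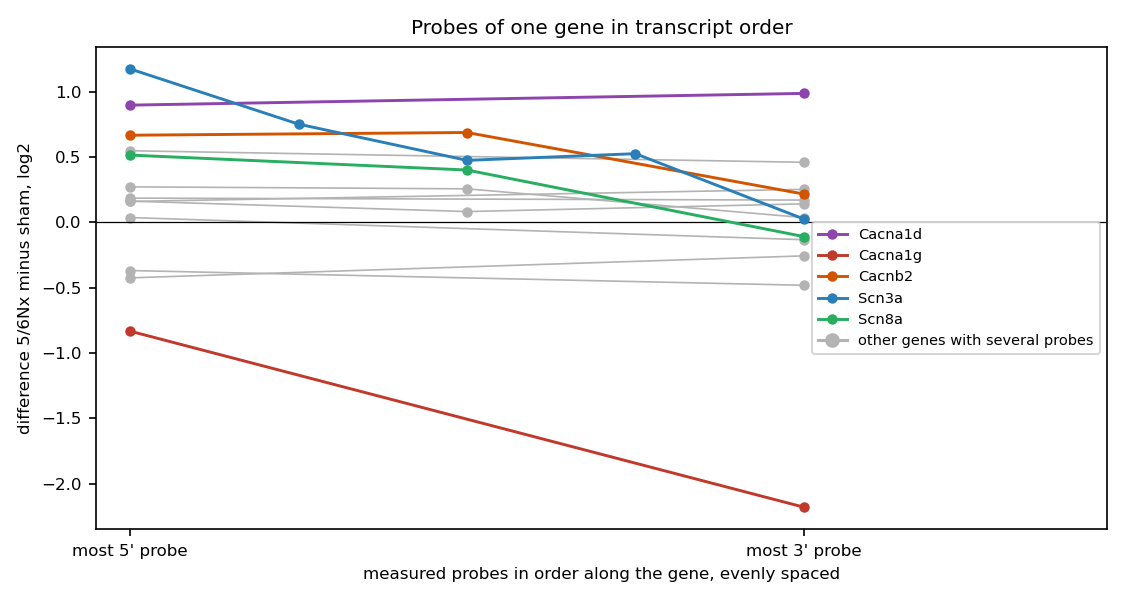
Difference of each measured probe (vertical axis, log2 5/6Nx minus sham) for the 13 genes with several measured probes, in order from the 5′ to the 3′ end and evenly spaced. Cacna1g falls to -2.18 at its most 3′ probe, Scn3a runs between 1.17 and 0.03, and Cacna1d stays at 0.90 and 0.99.

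In 13 genes with several measured probes, 11 had all of them on 1 side of 0 (84.6%), against 64.8% of 7994 such genes on the whole array. The exceptions were Scn8a and Cacna2d1. The most 3′ probe had a lower difference than the most 5′ probe in 10 of the 13, where the background over 7904 genes was 55.7%. The median of that step was -0.11 in the members and -0.05 over all genes. The most 3′ probe was also the brighter one in 9 of the 13 members and in 64.9% of all such genes. The part of signal strength in the step was not tested.

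The alpha2delta subunits, extracellular proteins that bind gabapentin-type drugs in some members, were all at or slightly below 0. Cacna2d3 was at -0.46, with 7803 on the 5/6Nx array and 12351 on the sham array. Cacna2d2 was at -0.42, with 3483 on the 5/6Nx array and 5371 on the sham array, and its second probe at -0.26. Cacna2d1 had probes at -0.13 and 0.04, and Cacna2d4 was at -0.0081, with 65.9 on the 5/6Nx array and 76.2 on the sham array. The class median was -0.28 over 4 genes, and 0 of 4 reached 1.5-fold.

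The calcium channel beta subunits are cytosolic partners of alpha1. Cacnb1, best known from skeletal muscle, had 804 on the 5/6Nx array and 1563 on the sham array, a difference of -0.76. Cacnb2 was at 0.22 by its brightest probe and at 0.69 and 0.67 by the other probes, all above 0, and the median over its probes was 0.67. Cacnb3 was at 0.02, with 11431 on the 5/6Nx array and 12961 on the sham array, and Cacnb4 at -0.25, with 3995 on the 5/6Nx array and 5445 on the sham array. Cacnb2 turned below 0 under spike-in scaling (-0.07). Cacnb3 kept its direction under 8 of 12 alternatives and reached -0.27 under spike-in scaling.

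In the gamma family the 2 highest values were those of Cacng5 and Cacng8. Cacng5, a TARP of type II, had 728 on the 5/6Nx array and 441 on the sham array, a difference of 0.92. Cacng8, the TARP most abundant in the hippocampus, had 1223 on the 5/6Nx array and 790 on the sham array, a difference of 0.83. The lowest value under any alternative was 0.64 for Cacng5 and 0.55 for Cacng8. Cacng5 and Cacng8 were each read by 1 probe, so no alternative is a check by a second sequence. Cacng2, or stargazin, was at -0.30, with 5848 on the 5/6Nx array and 8267 on the sham array, and its second probe did not exceed background on the arrays. Cacng3 was at -0.27, with 1079 on the 5/6Nx array and 1499 on the sham array. Cacng4 (-0.02), Cacng6 (0.06) and Cacng7 (0.17) stayed near 0. Cacng7, Cacng8 and Cacng6 follow each other on chromosome 7, with probes 47.5 kb and 20.3 kb apart, and of these 3 only Cacng8 was apart from 0 by more than the software's error estimate.

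Several members lie close to each other in the genome. On chromosome 2 the probes of Scn3a, Scn2a, Scn1a, Scn9a and Scn7a follow each other, with 0.53, 0.14 and 0.25 for the 3 measured genes. On chromosome 9 the probe of Scn11a (1.28) lies 145 kb from that of Scn10a, which was not well above background. In the gamma family Cacng5 (0.92) and Cacng4 (-0.02) lie 140 kb apart on chromosome 11.

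Lists of partner proteins of the channels had medians near 0. Over all measured genes, 55.4% lay above 0 and 8.18% were at least 2-fold apart. Of 16 measured sodium channel partners, such as ankyrins and fibroblast growth factor homologous factors, 10 lay above 0 and 0 reached 2-fold, with a median of 0.06. The kinase gene Camk2d (-0.91) and Fgf12 (-0.69), a factor that binds the sodium channel tail, were farthest from 0. Of 22 measured calcium channel partners 10 lay above 0, with a median of -0.07. Ahnak, a scaffold of the beta subunit, was higher by 1.65, and Stac2, an adaptor of L type channels, was lower at -1.19. Of 12 AMPA receptor auxiliary genes outside the TARPs 5 lay above 0, with a median of -0.04. Shisa9 was higher by 1.86, with 2087 on the 5/6Nx array and 662 on the sham array, and Gsg1l was lower at -1.32, with 1212 on the 5/6Nx array and 3475 on the sham array.

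Markers of the labelled tissue, hippocampus, were looked up, and several marker lists differed between the samples. All 9 markers of CA1, 9 of 10 of CA2 and CA3, all 10 of dentate granule cells and all 12 pan-neuronal markers were measured, and Iyd was above background on the 5/6Nx array only. All 10 thalamus markers and all 13 leptomeningeal markers were measured too, so detection alone cannot check the label. For the counts that follow, 55.4% of all measured genes lay above 0. Of 15 interneuron markers 14 lay below 0 (median -0.54), with a summed level of 216 times the 75th percentile in the 5/6Nx sample and 330 times in the sham sample. Cort (-1.17) and Pvalb (-1.03) were the lowest. Of the CA1 markers 7 lay below 0 (median -0.59), with a summed level of 45.7 in the 5/6Nx sample and 70.7 in the sham sample. Of the dentate granule markers 9 lay above 0 (median 0.51), with summed levels of 28.7 in the 5/6Nx sample and 29.5 in the sham sample. Medians were 0.16 for CA2 and CA3, -0.28 for pan-neuronal genes, -0.33 for oligodendrocytes, -0.18 for their precursors, -0.04 for astrocytes and 0.10 for the thalamus, a neighbouring region. Of these lists only the precursors had a summed level in the direction of the median (24.9 in the 5/6Nx sample, 33.8 in the sham sample). In the same order of samples it was 104 and 117 for CA2 and CA3, and 473 and 471 for pan-neuronal genes. It was 293 and 250 for oligodendrocytes, 332 and 316 for astrocytes, and 17.8 and 18.8 for the thalamus. All 16 measured choroid plexus markers lay above 0 (median 2.62), and all 13 leptomeningeal (-1.76) and all 9 measured blood markers (-3.73) below 0. In tissue RNA, fewer cells of a type and less RNA per cell cannot be told apart, and the part of these shifts in the channel values was not tested.

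**Figure D5:**
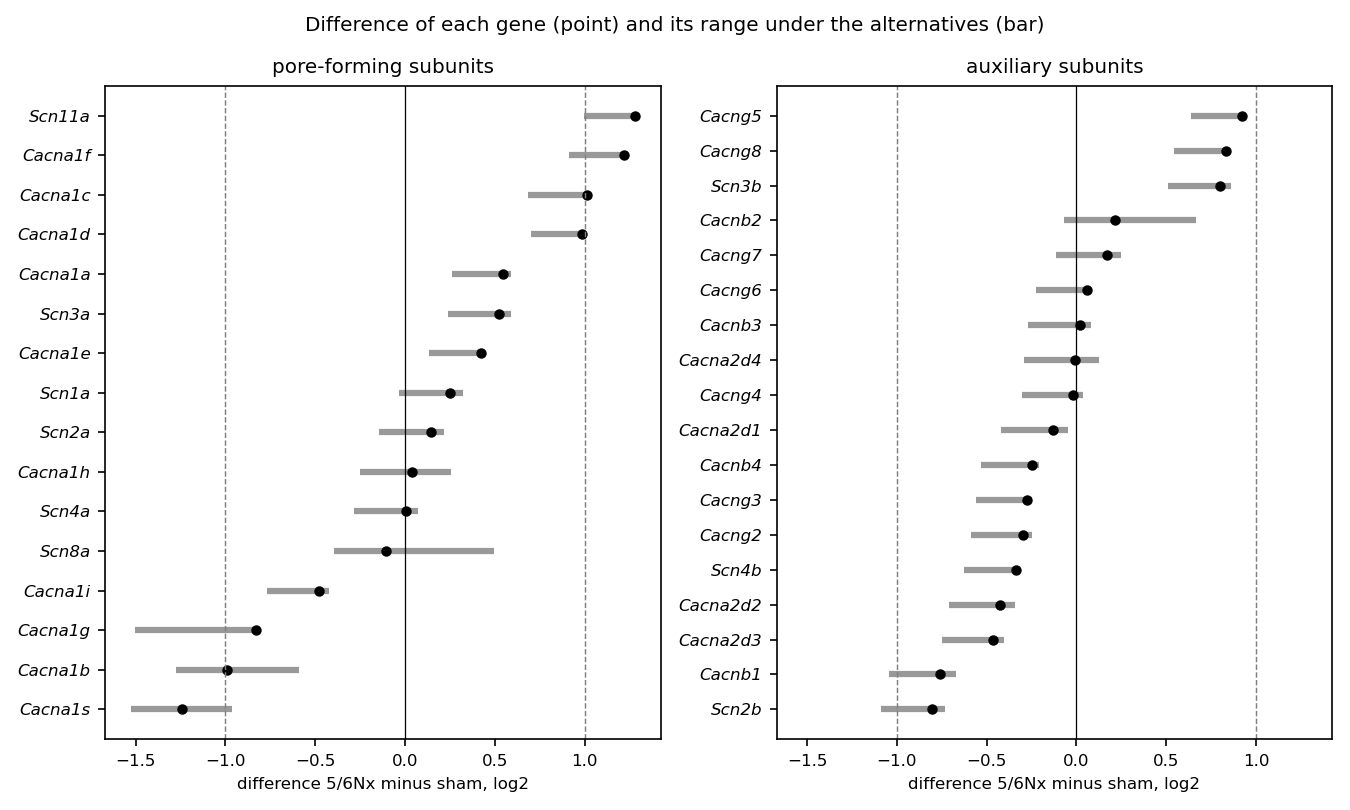
Difference of each measured gene drawn (black point, log2 5/6Nx minus sham) and its lowest and highest value under the alternatives (grey bar), with pore-forming subunits left, auxiliary subunits right and dashed lines at 2-fold. The bar of Cacna1g reaches -1.51, and that of Scn8a, whose probes differ in direction, runs between -0.39 and 0.50. Of the 34 bars drawn 23 do not cross 0.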

How the data were processed

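RNA of 1 hippocampal sample per group was hybridised to 1-colour Agilent arrays. The scanner files that the authors deposited hold linear intensity per spot, with background subtraction and detrending applied to each array by itself, per the file headers. Feature Extraction 10.7.1.1 stands in those headers, whereas 9.5.1.1 stands in the submitters' processing notes. Control spots and outlier spots (97 on the 5/6Nx array, 105 on the sham array, 0 of them of members) were left out. Spots were divided by the 75th percentile of their array and put on the log2 scale, and spots of a probe were averaged. Genes were named through RefSeq (GRCm38.p6); of the 63 member probes 55 matched by accession and 8 by symbol. Probe coordinates are mm9. The value table that the authors deposited beside them holds linear intensity with a median of 124 in each column and sorted values equal within 0.0323%. Each column matched its own array (r = 1.000), what set that median is unknown, and the table served as an alternative.

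Full values were given for members at least 2-fold apart, the extremes of each subunit class and genes whose probes differ in direction by over 0.5, with others by range. The members, lists and rules were chosen with earlier results of these data known, and the thalamus list after the member values were seen. Scripts were tested on simulated data. Python 3.11.15, statsmodels 0.14.6 and limma 3.58.1 were used, the last for the normexp alternative. The number of arrays limits the precision. Some members count in the totals and medians but are not reported here by name.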

Additional observations from a re-analysis of the deposited data

How the results depend on the processing

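No paired analysis was possible because a single array stands for each group, and none could be left out. The alternatives reuse the same 2 arrays, and scaling to the median or to 8 spike-in probes adds 1 constant to every difference; the spike-in scaling was chosen after seeing the data. Of 36 measured genes 23 kept 1 direction under every alternative run on them, and 0 of the 2-fold genes reversed. For a gene of 1 measured probe, the probe averages, no filter on dim probes and outlier spots kept could hardly move its value. Members at least 2-fold higher numbered 3 in the main setting, 1 with normexp, 1 with no background subtraction, 0 above the median signal and 0 with spike-in scaling, and 7 at 1.5-fold and 0 at 3-fold. Members at least 2-fold lower numbered 1 in the main setting and 2 with quantile normalization, with scaling to the median, with lowess against signal, in the authors' normalized table, and with the mean or the median over probes. They numbered 0 with normexp, with no background subtraction and above the median signal, 5 with spike-in scaling, and 5 at 1.5-fold and 0 at 3-fold. Filters and thresholds set their own counts, and for the other settings the cause was not tested. All members 2-fold apart in the main setting were dimmer than the median signal. Brighter than it were Cacna1g (-1.12), Cacnb1 (-1.04) and Scn2b (-1.09), which were 2-fold lower under spike-in scaling. Cacna1g was also 2-fold lower with the mean over probes (-1.51).

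Spike-in scaling gave medians of -0.055 for pore-forming and -0.30 for auxiliary genes, -0.055 for sodium alpha, -0.40 for sodium beta, 0.71 for L type, 0.14 for P/Q, N and R type, -0.77 for T type, -0.56 for alpha2delta, -0.40 for calcium beta, -0.43 for TARP type I, 0.26 for TARP type II and -0.23 for Cacng6 alone. Above the median signal the auxiliary median was -0.26 and that of TARP type II was 0.17. With no background subtraction the L type median was 0.78. The other 149 of 182 counts and medians kept within 1.5 times the count or within the median SD of 0.20 between probes of a gene. Signal over background limits the dim members: with no background subtraction Cacna1b was at -0.59, Cacna1c at 0.68, Cacna1f at 0.91 and Cacna1s at -0.97.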
